A study of Mus musculus with 6 samples.

Results

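The ADAM genes encode membrane-anchored proteins with a disintegrin and a metalloprotease domain, and 33 of the 55536 genes counted in these testes belong to the family. They were taken as all protein-coding genes whose symbol in the GENCODE M21 mouse annotation is Adam followed by a number and at most 1 letter, so that the Adamts and Adamdec genes stayed out. The rule itself uses no measured value, although the family was picked with earlier results of these data known. By what is known of where they are active, 20 were placed in a testis list, 12 in a list of widely expressed or somatic genes, and Adam7, a gene of the epididymis, was kept apart. The data are transcript counts from whole testis, and the folding or the surface level of the ADAM proteins was not measured.

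RNA from the testes of 3 KOStra8 and 3 HETStra8 mice, all 7 weeks old, was sequenced as 1 library per mouse. KOStra8 mice carried Sel1L flox/Δ alleles with Stra8-Cre, a transgene in which a male germ cell promoter drives Cre, and they were compared with heterozygous HETStra8 littermates, given in the series record as Sel1L flox/Δ with no Cre named. The study's text combines this genotype with Sel1L flox/+ carrying Stra8-Cre under the same name, and which of them each of these HETStra8 mice had is not given in the sources used here. According to the study, SEL1L protein was still seen in spermatogonia and in Sertoli cells of KOStra8 mice, so whole testis also holds cells that keep the gene. The comparison asks whether transcripts of ADAM genes differ when SEL1L, the adaptor of the HRD1 ubiquitin ligase in endoplasmic reticulum (ER)-associated degradation, is lost from germ cells.

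Several ADAM proteins of sperm are made in spermatogenic cells, fold in the ER with the testis chaperones calmegin and calsperin and the disulfide isomerase homologue PDILT, and lose their prodomain on the way to the sperm surface. ADAM3 is a member without which mouse sperm fail to pass from the uterus into the oviduct, and mice that lack calmegin, calsperin or PDILT also lack ADAM3 on sperm. The somatic members include ADAM10 and ADAM17, the sheddases that cut Notch and tumor necrosis factor from the cell surface.

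Among the ADAM genes with a matched promoter, the testis-list and the somatic genes differ in the sequence before their start sites. RefSeq promoters (GRCm38.p6) could be matched for 10 of the 20 testis-list genes and for 7 of the 12 somatic genes, of which Adam19 has 3. The 10 are Adam1a, Adam1b, Adam6a, Adam6b, Adam20, Adam21, Adam25, Adam26b, Adam29 and Adam34. Genes without a match include Adam2, Adam3, Adam5, Adam18 and Adam32 of the testis list and Adam9 of the somatic list. In the 250 bases upstream of the start site, the testis-list promoters held between 0 and 4 CpG dinucleotides with a median of 1, and the 9 somatic promoters held between 4 and 29 with a median of 17. The median over all 32851 promoters of the table was 6. Median GC content was 38.8% in the testis-list windows, 62.0% in the somatic windows and 52.4% over all promoters. The 100 bases before the start of 2 testis-list genes and of 2 sheddase genes are shown 5′ to 3′ on the strand of the gene, with CpG dinucleotides in capitals, because they show this contrast by eye. Adam29 lies at chr8:55906965-55907064 (minus strand), Adam6a at chr12:113543808-113543907 (plus), Adam10 at chr9:70678882-70678981 (plus) and Adam17 at chr12:21373633-21373732 (minus).
Adam29: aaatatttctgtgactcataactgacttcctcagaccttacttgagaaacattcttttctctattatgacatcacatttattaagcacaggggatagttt
Adam6a: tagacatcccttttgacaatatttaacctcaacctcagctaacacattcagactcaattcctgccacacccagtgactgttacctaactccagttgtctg
Adam10: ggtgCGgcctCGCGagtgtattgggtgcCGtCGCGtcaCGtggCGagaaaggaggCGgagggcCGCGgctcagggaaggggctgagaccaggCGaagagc
Adam17: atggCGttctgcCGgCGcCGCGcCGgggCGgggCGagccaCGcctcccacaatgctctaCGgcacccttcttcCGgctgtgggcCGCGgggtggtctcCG
The cAMP response element TGACGTCA, a motif of several promoters active in spermatids, was in 0 of the 10 testis-list windows and 0 of the 9 somatic windows, against 1.55% of all promoters. Its first 5 letters TGACG, searched on both strands and so also counted inside TGACGTCA, were in 0 testis-list windows and in 1 somatic window, that of Adam10, against 17.8% of all promoters. Both strings contain a CpG, so the windows of Adam6b, Adam21, Adam26b and Adam34, with 0 CpG, could not match. The low counts of matches are therefore not separate from the low CpG counts above. These matches describe letters in the windows only.

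**Figure D1:**
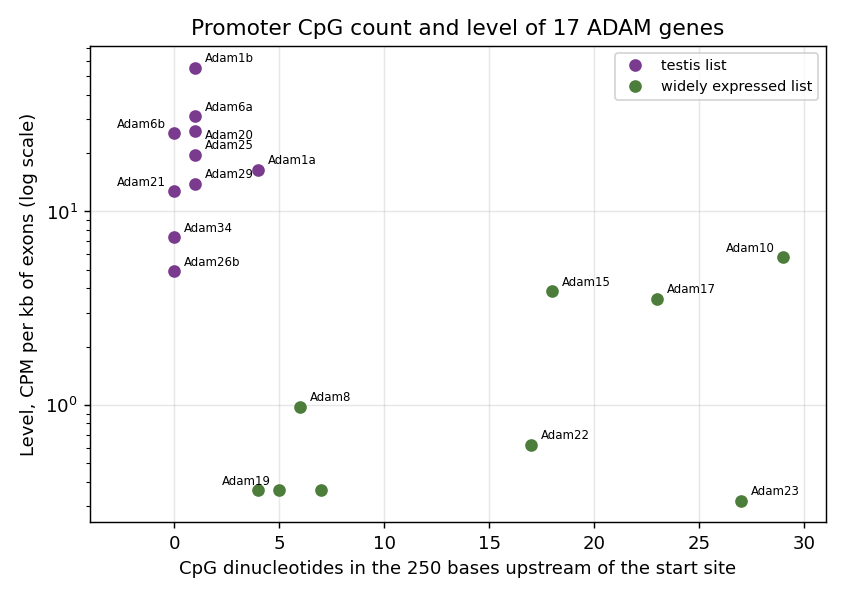
Each point is the promoter of an ADAM gene, with the number of CpG dinucleotides in the 250 bases upstream of its start site on the x axis and the level of the gene in CPM per kb of exons, averaged over 6 libraries, on a log y axis. The 10 testis-list genes with a matched promoter (purple) have 0 to 4 CpG, and the 7 somatic genes with one (green) have 4 to 29. Adam19 has 3 promoters, drawn at 1 level. Adam2, Adam3, Adam5, Adam18 and Adam32 had no match and are not drawn.

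Several testis-list genes are near copies of each other, which bears on how their reads can be assigned. The coding sequences of Adam6a and Adam6b were identical at 94.6% of aligned bases, those of Adam25 and Adam39 at 95.6% and those of Adam26a and Adam26b at 93.9%. Adam20 was 88.6% identical to Adam25 and 88.3% identical to Adam39, and Adam1a was 73.1% identical to Adam1b, with 1 run of 1082 bases without a difference, the longest of these pairs. The first 60 coding bases of Adam6a and Adam6b are the same, and their longest run without a difference was 223 bases. The 60 bases (GRCm38) in which Adam6a (chr12:113544894-113544953, plus strand) and Adam6b (chr12:113490450-113490509, plus strand) differ most are shown with the 19 differing bases in capitals, because reads from such stretches are the ones that tell the copies apart.
Adam6a: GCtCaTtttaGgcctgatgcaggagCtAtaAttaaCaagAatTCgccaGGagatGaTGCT
Adam6b: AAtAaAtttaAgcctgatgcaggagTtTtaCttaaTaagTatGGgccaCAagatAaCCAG
Of the 33 genes, 11 shared at least 10% of their 50-base sequences with another gene, namely Adam1a, Adam1b, Adam4, Adam6a, Adam6b, Adam20, Adam25, Adam26a, Adam26b, Adam34 and Adam39. Their separate counts are less certain than those of the 9 testis-list genes that share none (Adam2, Adam3, Adam5, Adam18, Adam21, Adam24, Adam29, Adam30 and Adam32). Adam3 shares 199 exon bases with Gm45528 on the opposite strand. Adam1a stands apart in the annotation: its 7508 bases of merged exons (chr5:121518576-121545482, minus strand) overlap those of Mapkapk5, which had between 12 and 23 counts per library, and of Gm42878, which had 0 counts in all 6 libraries.

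In the genome, 13 of the 33 genes are on chromosome 8 and 5 on chromosome 12. Adam18, Adam3, Adam5, Adam32 and Adam9 follow one another on the minus strand at chr8:24602246-25016927 (GRCm38) with no other protein-coding gene between them. Of the testis list, 13 genes have 1 or 2 merged exons, and 5 genes, Adam2, Adam3, Adam5, Adam18 and Adam32, have 20 or more. The somatic genes have between 16 and 35.

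The 6 libraries held between 28875108 and 36526695 counts, with normalization factors between 0.990 and 1.01, and 21465 genes passed the filter on low counts. The biological coefficient of variation between mice was 0.160. Sel1l, the targeted gene, had 1549, 1603 and 1413 counts in HETStra8 mice 1, 2 and 3 and 846, 636 and 741 counts in KOStra8 mice 1, 2 and 3, and its log2 fold change was −1.07 ± 0.10 (SE) with an adjusted p of 0.00061 by edgeR's quasi-likelihood test. Counts per gene cannot tell apart transcript from cells that keep the gene and transcript from deleted alleles. Markers of spermatogenic cells were present in every library, with summed levels of 4077 to 4356 CPM for 7 spermatocyte markers, 878 to 972 CPM for 6 round spermatid markers and 11538 to 13054 CPM for 6 elongating spermatid markers, and the ranges of the genotypes overlapped for each sum. Ldhc made up most of the spermatocyte sum, and the markers of this list did not share a direction. Sycp1 and Sycp3, of the synaptonemal complex, and Spo11 were lowest in HETStra8 mouse 1. Piwil1 (575 CPM) and Ldhc (2721 CPM) were highest in that mouse. Log2 fold changes were 0.15 for Spo11, −0.02 for Piwil1, −0.11 for Ldhc, −0.06 for Pgk2 and 0.0043 for Ccna1. Sycp1 had 70.9, 119.7 and 186 CPM in HETStra8 and 261, 247 and 228 CPM in KOStra8, without overlap, at a log2 fold change of 0.97 ± 0.39 (SE) and an adjusted p of 0.424 by edgeR. Sycp3 had 76.1, 91.8 and 145 CPM in HETStra8 and 128, 153 and 158 CPM in KOStra8, with overlap, at 0.49 ± 0.27 (SE). The part of the Sycp1 and Sycp3 differences in the ADAM values was not tested.

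The testis-list genes accounted for nearly all ADAM transcripts. Levels are given as CPM, counts scaled to 1000000 per library after normalization by the trimmed mean of M values, and as CPM per kb of merged exons where genes are compared. Summed over the family, ADAM genes reached 4351, 4575 and 4854 CPM in HETStra8 mice 1, 2 and 3 and 4894, 4902 and 5028 CPM in KOStra8 mice 1, 2 and 3. The testis list made up between 96.8% and 97.1% of this sum in every library. Adam2, Adam3, Adam5 and Adam32 alone made up between 71.8% and 73.4%, and Adam3 with Adam5 between 48.5% and 50.6%.

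Adam3 had the highest level of the family, 404 ± 27.4 CPM per kb (mean and SD over 6 libraries), and ranked 73rd of all 21465 tested genes. Adam5, whose protein is related to ADAM3, followed at 377 ± 26.1 CPM per kb, and the level of Adam3 was above that of Adam5 in 6 of 6 libraries although the SDs overlap. Adam32 (219 ± 13.4 CPM per kb) and Adam2 (162 ± 4.27 CPM per kb), which encodes fertilin beta, came next, and their SDs overlap neither with each other nor with those of Adam3 and Adam5. The 5 genes with 20 or more exons spanned 48.8 to 404 CPM per kb, and the 13 genes with 1 or 2 exons spanned 4.92 to 55.5 CPM per kb, with Adam1b, one of 2 genes for fertilin alpha, at 55.5 ± 1.76 and Adam26b the lowest at 4.92 ± 0.98. Adam1a, the other, had 16.4 CPM per kb over its merged exons and 35.3 CPM per kb over the 3496 bases of the transcript Adam1a-201, so its place depends on the length used. The median was 24.5 CPM per kb over the testis list.

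The somatic ADAM genes were far lower, with a median of 0.80 CPM per kb. Adam10 was the highest at 5.78 ± 0.46 CPM per kb, followed by Adam9 (4.99 ± 0.733), Adam15 (3.86 ± 0.839), Adam11 (3.77 ± 0.464) and Adam17 (3.53 ± 0.296), of which neighbours in this order have overlapping SDs. Adam8, Adam12, Adam19, Adam22, Adam23 and Adam33 lay between 0.175 and 0.977 CPM per kb. Of the 20 testis-list genes, 19 were above Adam10, the exception being Adam26b. The level of Adam3 was 69.9 times that of Adam10 per kb.

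**Figure D2:**
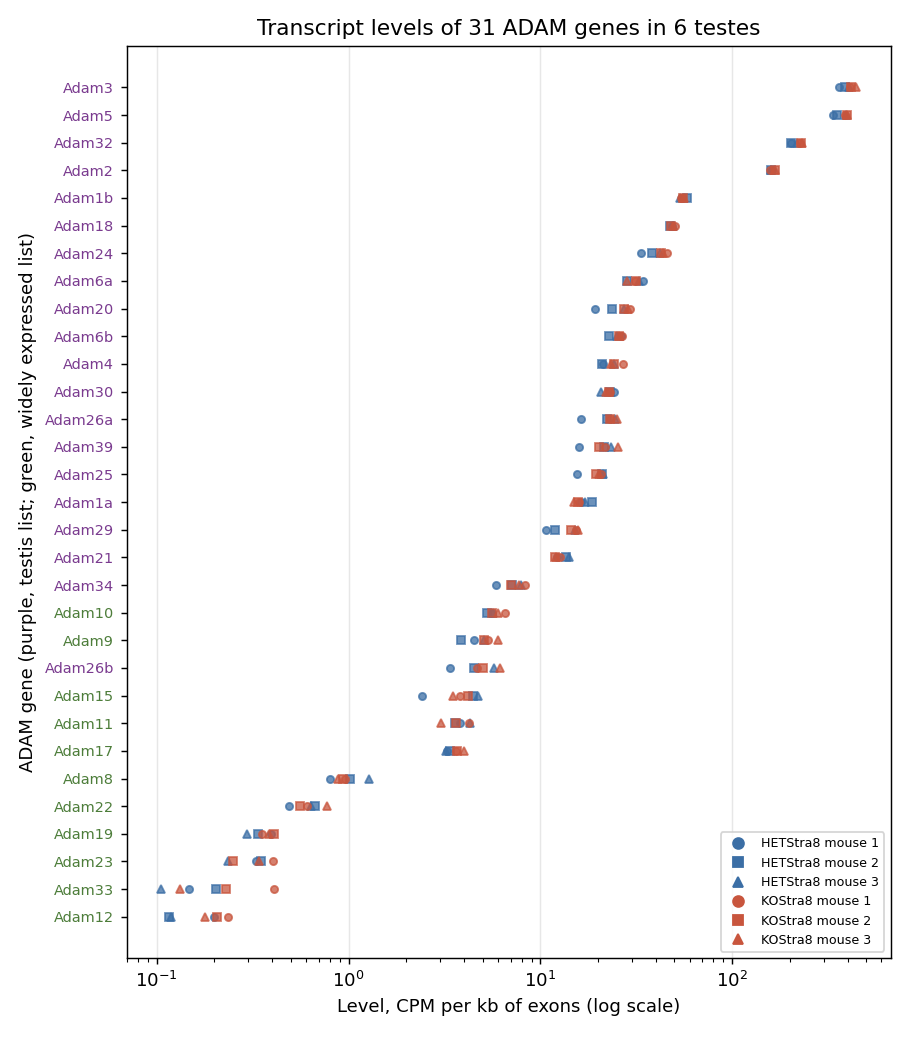
Each row is an ADAM gene and each point a mouse, with the level in CPM per kb of exons on a log x axis; blue points are HETStra8 and red points KOStra8 mice. The testis list (purple names) spans 4.92 to 404 CPM per kb on average, and the somatic genes (green names) sit at or below 5.78; Adam7 and Adam28, with 0 counts in several libraries, are not drawn.

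Next, ADAM transcripts were compared between genotypes. None of the 31 ADAM genes that passed the filter differed at the study's limits, an adjusted p below 0.01 and a fold over 2, by edgeR's quasi-likelihood test. Over all genes, these limits were passed in this fit by 2 of 21465, or 0.00932%, which are Sel1l and Ryr1. The study reported many more genes over the same limits for its HETStra8 and KOStra8 testes, and why the numbers differ was not tested. At an adjusted p below 0.05 there were also 0 ADAM genes, against 0.0233% of all genes, and both DESeq2 and limma-voom called 0 ADAM genes at the study's limits. The 95% interval of the log2 fold change lay within a fold of 2 either way for 29 of 31 genes, Adam12 and Adam33 being the exceptions, and for the testis list its outermost bounds were −0.33 and 0.62. In whole testis, fewer cells of a type and less RNA per cell cannot be told apart. With 3 mice per group an exact permutation test of a single gene cannot give a two-sided p below 0.1.

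In the fit without GC offsets, most ADAM genes had small differences above 0. The log2 fold change was above 0 for 23 of the 31 tested genes, with a median of 0.14, while over all tested genes 48.5% were above 0 and the median was −0.0094. At an unadjusted p below 0.05, 5 ADAM genes (Adam9, Adam20, Adam24, Adam29 and Adam32) were higher and 0 were lower in KOStra8, which is 16.1% against a background of 7.13% of all genes higher and 5.12% lower. Every KOStra8 value exceeded every HETStra8 value for 6 genes (Adam3, Adam9, Adam17, Adam20, Adam24 and Adam32), or 19.4% against 9.33% of all genes, and was under every HETStra8 value for Adam1a alone, or 3.23% against 8.43%. The adjusted p over all genes was between 0.337 and 0.996 for the 31 genes.

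The count of 5 genes changed when single mice were left out and when offsets for GC content and transcript length were added together. Without HETStra8 mouse 2 or without KOStra8 mouse 1, 0 ADAM genes had an unadjusted p below 0.05, against 8.81% and 9.31% of all genes in either direction. Without KOStra8 mouse 3 it was Adam33 alone, against 6.56%, and without KOStra8 mouse 2 the genes were Adam9, Adam20, Adam24 and Adam29, against 10.7%. Without HETStra8 mouse 3, 10 ADAM genes were higher and 0 lower at that limit, against 11% of all genes higher and 19.8% in either direction, and Adam20, Adam24 and Adam29 passed an adjusted p of 0.05, as did 4.9% of all genes. Without HETStra8 mouse 1 the genes were Adam9 and Adam12, higher, and Adam1a and Adam15, lower, against 8.64% of all genes in either direction. Across 21457 tested genes the log2 fold change correlated with the GC content of the transcript with a Spearman rho of −0.46, a description over genes that share the same 6 libraries. The testis-list transcripts had a median GC content of 43.0%, against 48.5% for the somatic genes and 48.8% for all tested genes. With offsets for GC content and transcript length in the fit, Adam9 was higher at an unadjusted p below 0.05 and Adam1a and Adam21 were lower, against 4.35% of all genes higher and 3.16% lower. The testis-list median went from 0.13 to −0.0071, with 10 genes above and 10 below 0 where the fit without offsets had 15 and 5. Whether the GC trend is technical was not tested.

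**Figure D3:**
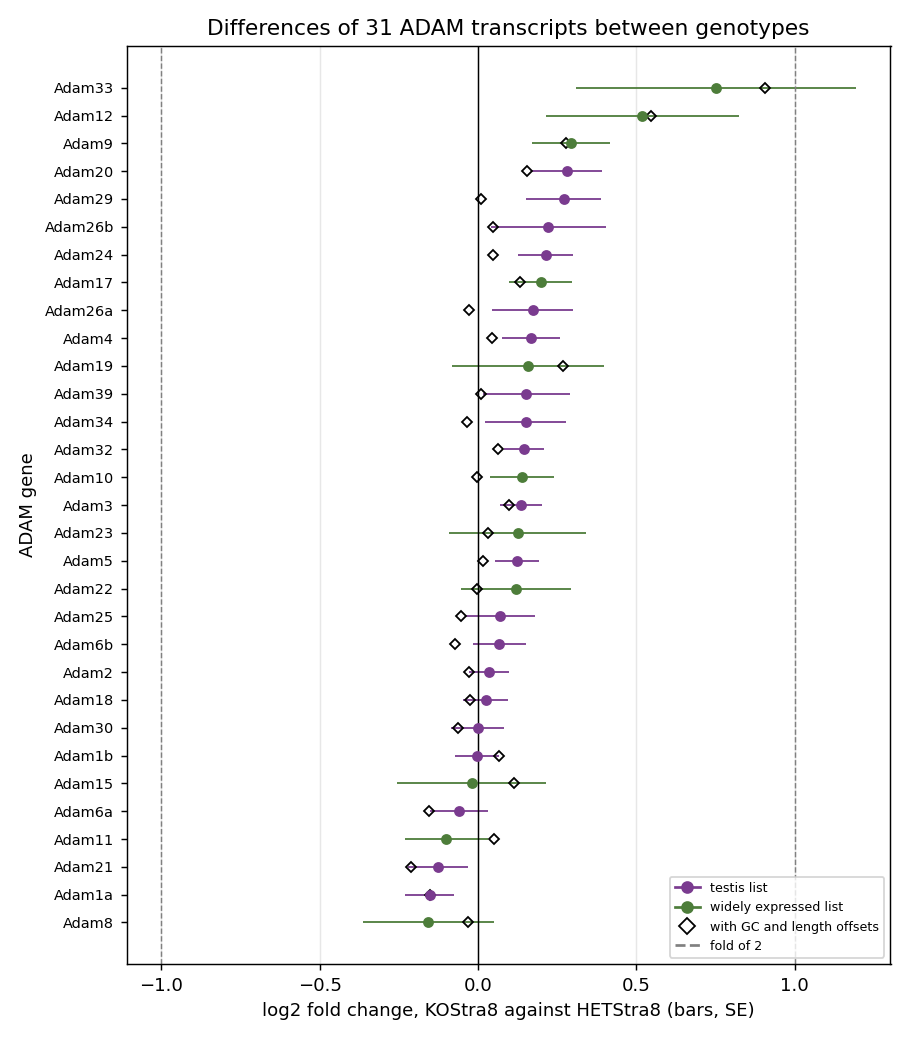
Each row is 1 of the 31 tested ADAM genes, with its log2 fold change of KOStra8 against HETStra8 on the x axis and bars for the SE (3 mice per group); open diamonds are the same differences with GC and length offsets. The filled points are at or below 0.75 and 23 lie above 0, while with the offsets 18 lie above 0.

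Among the genes of the fertilin and ADAM3 complexes, levels were close between genotypes. Adam3 had 1061, 1141 and 1197 CPM in HETStra8 mice 1, 2 and 3 and 1217, 1221 and 1299 CPM in KOStra8 mice 1, 2 and 3. Its KOStra8 values lay above all HETStra8 values, but the gap between the groups was 1197 against 1217 CPM, less than the spread within either group. The log2 fold change was 0.14 ± 0.07 (SE), with a 95% interval of −0.0041 to 0.28 and an adjusted p of 0.417 by edgeR's quasi-likelihood test. Adam2, whose protein is a partner of ADAM1 and ADAM3 on sperm, had 435, 427 and 429.7 CPM in HETStra8 and 424, 448 and 452 CPM in KOStra8, and the groups overlapped (log2 fold change 0.04 ± 0.06 (SE), interval −0.10 to 0.17). Adam1b was likewise between 179 and 195 CPM in HETStra8 and between 181 and 188 CPM in KOStra8, with a log2 fold change of −0.0037 ± 0.07 (SE) and an interval of −0.15 to 0.15.

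Adam1a was the only member with all KOStra8 mice below all HETStra8 mice. Most of its merged exons overlap other genes, as given above, and how reads from such stretches were counted is not given in the sources used here. Adam1a had 122, 139 and 128 CPM in HETStra8 and 119, 118 and 113 CPM in KOStra8, which leaves 118.9 and 122.2 CPM as the nearest values of the groups. Its log2 fold change was −0.15 ± 0.08 (SE) and −0.15 with GC and length offsets, and the adjusted p was 0.435 by edgeR. ADAM1A is the fertilin alpha form known from the ER of spermatogenic cells, where it pairs with ADAM2, and ADAM1B is the form on the sperm surface.

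Adam4, Adam5 and Adam6, whose proteins have been found with ADAM2 or ADAM3 in testis, gave no called difference either. Adam5 had 1049, 1109 and 1232 CPM in HETStra8 and 1211, 1237 and 1245 CPM in KOStra8, with HETStra8 mouse 3 inside the KOStra8 range (log2 fold change 0.12 ± 0.07 (SE)). Adam4 had 53.5, 52.7 and 60.6 CPM in HETStra8 and 67.8, 61 and 58.3 CPM in KOStra8, overlapping at the values of HETStra8 mouse 3 and KOStra8 mouse 3 (log2 fold change 0.17 ± 0.09 (SE)). The near copy Gm4787, which shares 13.2% of the 50-base sequences of Adam4, had a log2 fold change of 0.02 ± 0.07 (SE). Adam6a had 87.7, 72 and 83.2 CPM in HETStra8 and 79.8, 80.5 and 72.8 CPM in KOStra8, and Adam6b had 67.4, 58.3 and 64.3 and 68.3, 65.5 and 65.3 CPM in the same order. Their log2 fold changes, −0.06 ± 0.09 (SE) and 0.07 ± 0.08 (SE), were smaller than the spread between mice.

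Of the neighbours of Adam3 on chromosome 8, Adam32 had 605, 608 and 654 CPM in HETStra8 and 680.4, 685 and 696 CPM in KOStra8. All KOStra8 mice were higher, and the log2 fold change was 0.14 ± 0.06 (SE) with an unadjusted p of 0.0389 and an adjusted p of 0.383 by edgeR. With the offsets it was 0.06. Adam18 was even between mice, with 115, 111 and 117 CPM in HETStra8, 119, 113 and 116 CPM in KOStra8 and a log2 fold change of 0.02 ± 0.07 (SE) (interval −0.13 to 0.18).

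The larger differences of the testis list were in genes with 1 or 2 exons on chromosome 8. Adam24, whose protein (testase 1) is known to act against polyspermy, had 96.8, 110.4 and 121 CPM in HETStra8 and 132, 124 and 125 CPM in KOStra8, without overlap. Its log2 fold change was 0.21 ± 0.09 (SE) with an unadjusted p of 0.0288 and an adjusted p of 0.356 by edgeR, and 0.05 with the offsets. Adam20 had 50.2, 61 and 70.9 CPM in HETStra8 and 76, 71.1 and 74.3 CPM in KOStra8. HETStra8 mouse 3 was just under the lowest KOStra8 mouse, and HETStra8 mouse 1 was the lowest. The log2 fold change of Adam20 was 0.28 ± 0.11 (SE), the largest of the testis list, with an adjusted p of 0.337 by edgeR, the lowest of the family, and 0.15 with the offsets. Adam29 had 29.1, 32.5 and 41.3 CPM in HETStra8 and 41.6, 39.6 and 43 CPM in KOStra8, so that HETStra8 mouse 3 fell among the KOStra8 mice. Its log2 fold change was 0.27 ± 0.12 (SE) with an unadjusted p of 0.0386 and an adjusted p of 0.382 by edgeR, and only 0.01 with the offsets. The transcript of Adam29 has the lowest GC content of the family, 38.2%.

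In the near copies on this chromosome, HETStra8 mouse 1 was the low library. Adam25 had 40.9, 54.8 and 55.5 CPM in HETStra8 and 54.4, 51 and 53.3 CPM in KOStra8. Adam39 had 41.7, 56.3 and 61.5 CPM in HETStra8 and 57, 53.3 and 67.1 CPM in KOStra8. Adam26a had 40.6, 55.1 and 61.4 CPM in HETStra8 and 57.2, 57.5 and 62.4 CPM in KOStra8. In all 3 genes HETStra8 mouse 1 was below every other mouse and HETStra8 mice 2 and 3 lay close to the KOStra8 values. Adam26b followed with 8.37, 11.1 and 14.2 CPM in HETStra8 and 11.7, 12.5 and 15.2 CPM in KOStra8, and Adam34 with 15.2, 18.4 and 20.4 CPM and 21.6, 18.3 and 20.1 CPM. The log2 fold changes of these 5 genes lay between 0.07 (Adam25) and 0.22 (Adam26b) and their 95% intervals all held 0. The near copy Gm5347, with 15.7% of the 50-base sequences of Adam34, had 98, 106 and 166 counts in HETStra8 and 209, 125 and 220 counts in KOStra8.

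Adam21 on chromosome 12 and Adam30 on chromosome 3 did not follow this direction. Adam21 had 35.7, 39.8 and 41 CPM in HETStra8 and 37, 34.6 and 35 CPM in KOStra8, with a log2 fold change of −0.13 ± 0.09 (SE) that came to −0.21 with the offsets (unadjusted p 0.0214, adjusted p 0.568 by edgeR). Adam30 had 85.2, 81.4 and 73 CPM in HETStra8 and 81.7, 80.2 and 77.6 CPM in KOStra8, and the interval of its log2 fold change ran from −0.18 to 0.18.

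HETStra8 mouse 1 had the lowest CPM of all 6 mice in 11 of the 20 testis-list genes. The median deviation of the list from the HETStra8 mean was −0.099, 0.019 and 0.10 log2 units in HETStra8 mice 1, 2 and 3 and 0.11, 0.055 and 0.12 in KOStra8 mice 1, 2 and 3, so that HETStra8 mouse 3 was within the KOStra8 range. Without HETStra8 mouse 1, the median log2 fold change of the testis list was 0.045 in place of 0.13. Sertoli and Leydig markers were measured beside these values, and none passed an adjusted p of 0.05 by edgeR. All 6 Sertoli markers had negative log2 fold changes, from −0.35 (Amh) to −0.01 (Sox9), where 51.5% of all genes were negative. Clu and Rhox5 were lower at an unadjusted p below 0.05 by edgeR, or 33.3% against 5.12% of all genes. With GC and length offsets 4 of the 6 were negative and 0 were lower at that limit. The summed level of the 6 was 1033, 864 and 849 CPM in HETStra8 and 782, 820 and 704 CPM in KOStra8, with 0 of the markers absent from every library. Clu made up most of this sum. All 5 Leydig markers were negative as well, also with the offsets, and Star was lower at that limit, or 20% of the list. Their sums were 719, 533 and 478 CPM in HETStra8 and 516, 462 and 400.1 CPM in KOStra8, which overlap. HETStra8 mouse 1 had the highest sum of the Sertoli and of the Leydig list. Of the other somatic markers, 4 of 4 for macrophages were negative, with Cd68 lower at that limit, as were 2 of 3 for endothelium and 2 of 2 for peritubular myoid cells. The part of these cells in the ADAM differences was not tested.

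**Figure D4:**
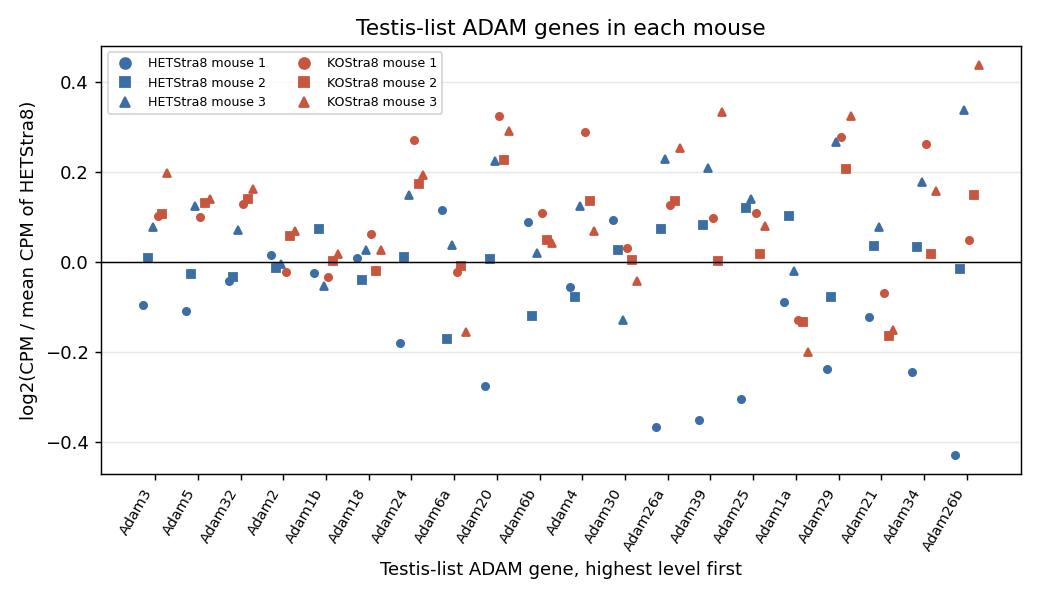
For the 20 testis-list genes, ordered by level, each point gives the log2 ratio of the CPM of a mouse to the mean CPM of the HETStra8 mice; blue is HETStra8 and red KOStra8, with a symbol per mouse number. HETStra8 mouse 1 (blue circles) is the lowest mouse in 11 genes, and HETStra8 mouse 3 (blue triangles) lies among the KOStra8 mice in many.

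The sheddases and the other somatic members were measured at lower depth. Adam9, next to Adam32 on chromosome 8, had 18.5, 16 and 20.9 CPM in HETStra8 and 22.1, 21 and 24.7 CPM in KOStra8. All KOStra8 mice were higher, and the log2 fold change was 0.29 ± 0.12 (SE) with an unadjusted p of 0.0323 and an adjusted p of 0.365 by edgeR. It was 0.28 with the offsets, so that Adam9 alone of the 5 genes kept an unadjusted p below 0.05 there. Adam17 had 23.2, 24.3 and 23 CPM in HETStra8 and 26, 26.4 and 28.5 CPM in KOStra8, also without overlap, and the log2 difference was 0.20 ± 0.10 (SE) at an edgeR adjusted p of 0.432. Adam17 shares 311 exon bases on the opposite strand with Iah1, and the strand setting of the counting is not given in the sources used here. Adam10, the other main sheddase, had 27.5, 25.8 and 27.9 CPM in HETStra8 and 32.2, 27.4 and 29.7 CPM in KOStra8, and the groups overlapped (log2 fold change 0.14 ± 0.10 (SE), interval −0.08 to 0.36). Adam15 had 14.9, 27.5 and 29.3 CPM in HETStra8 and 23.5, 25.8 and 21.4 CPM in KOStra8, where HETStra8 mouse 1 stood well below the other 5 mice, and its exons share 1263 bases with an antisense gene.

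For Adam8, known from leukocytes, and for Adam11, Adam22 and Adam23, known from neurons and without a working protease site, the log2 fold changes were between −0.16 and 0.12 with intervals that held 0. Adam12, Adam19 and Adam33 had at most 100 counts in any library, and their log2 fold changes of 0.52 ± 0.30 (SE), 0.16 ± 0.24 (SE) and 0.75 ± 0.44 (SE) also had intervals that held 0. The value of Adam33 rests on KOStra8 mouse 1, with 77 counts where the others had between 19 and 37. The median log2 fold change of the 11 tested somatic genes was 0.14, and 0.11 with the offsets.

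Adam7 and Adam28 did not pass the filter. Adam7 had 44 counts in HETStra8 mouse 1 and 0 in the other 5 libraries, and Adam28 had 8, 0 and 4 counts in HETStra8 mice and 0 in KOStra8 mice, where 3 counts correspond to between 0.0822 and 0.104 CPM. Of the 6 epididymis markers, Crisp1 and Spink8 were highest in the same library and the others were not. Crisp1 had 220 counts in HETStra8 mouse 1 and at most 11 in any other mouse, and Spink8 had 62 and at most 5. Lcn5 had 4 counts in HETStra8 mouse 3 and 0 elsewhere, Defb48 had at most 4 counts in any mouse and 1 in HETStra8 mouse 1, and Rnase10 was highest in KOStra8 mouse 3, with 228 counts against 149 in HETStra8 mouse 1. Over the 6 epididymis markers the summed level was 13.7, 5.02 and 4.08 CPM in HETStra8 and 2.89, 3.35 and 6.41 CPM in KOStra8, with 1 marker, Lcn8, at 0 in every library. Without a filter on low counts, Adam7 was called lower in KOStra8, where 0.109% of genes were called in either direction, and this call came from that 1 library.

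Genes chosen for acting on ADAM proteins, or for belonging to a family that does, were read from the same fit in 4 lists. The first holds 8 ER chaperones and oxidoreductases. Clgn, the gene of calmegin, had 859.8 ± 69.4 CPM (SD, n = 3) in HETStra8 and 948 ± 27 CPM in KOStra8, which differ by 0.14 ± 0.07 (SE) on the log2 scale, and an adjusted p of 0.43 by edgeR. Calr3, the gene of calsperin, had a log2 fold change of −0.08 ± 0.09 (SE), and Pdilt one of 0.09 ± 0.10 (SE). Of the 8 genes, 0 were called, 6 were above 0, and 2, Hspa5 (BiP) and Hsp90b1 (GRP94), were higher at an unadjusted p below 0.05, or 25% of the list against 7.13% of all genes. Over all genes 48.5% were above 0 and 0.00932% were called. Hspa5 had 536, 544 and 552 CPM in HETStra8 and 591, 617 and 598 CPM in KOStra8, and Hsp90b1 had 474, 479 and 529.7 and 603, 620 and 575 CPM, both without overlap. The log2 fold changes were 0.15 ± 0.06 (SE) and 0.28 ± 0.07 (SE), with adjusted p of 0.367 and 0.15 by edgeR. With the offsets they were 0.11 and 0.14, at unadjusted p of 0.0554 and 0.0281 by edgeR. For Hsp90b1 the adjusted p was 0.0306 by DESeq2, 0.0209 by edgeR without a filter on low counts and 0.00524 by edgeR without HETStra8 mouse 3. In the same order, 354, 660 and 1082 genes had an adjusted p below 0.05 in these fits, against 5 in the main fit. In the other alternatives the adjusted p of Hsp90b1 was between 0.116 and 0.5996. The study reported that BiP transcript was not affected and that GRP94 protein did not change significantly.

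The second list holds 11 genes, the epididymis marker Rnase10 among them. Their loss in knockout mice, alone or together with another gene of the list, leaves ADAM3 missing from or misplaced on sperm. Of these, 0 were called, 9 had negative and 2 positive log2 fold changes, where 51.5% of all genes were negative. Ace and Ly6k were lower at an unadjusted p below 0.05, or 18.2% against 5.12% of all genes. Ace, whose testis form is a peptidase of sperm, had 769, 759.9 and 726 CPM in HETStra8 and 680.4, 661 and 676 CPM in KOStra8, without overlap, and a log2 fold change of −0.16 ± 0.06 (SE) that came to −0.02 with the offsets. Ly6k, which encodes a GPI-anchored partner of TEX101, had a log2 fold change of −0.21 ± 0.09 (SE) and −0.10 with the offsets. Tex101 itself, the GPI-anchored germ cell protein, had 131 ± 14.4 CPM in HETStra8 and 127 ± 6.89 CPM in KOStra8 (log2 fold change −0.04 ± 0.09 (SE)). With the offsets the list median went from −0.098 to −0.0068.

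Of 4 proprotein convertases, the proteases that remove prodomains, 0 were called and Furin was lower at an unadjusted p below 0.05, against 5.12% of all genes, with 22.3, 21.1 and 20.8 CPM in HETStra8 and 17.1, 17.1 and 14.2 CPM in KOStra8. Its log2 fold change was −0.41 ± 0.12 (SE), with an adjusted p of 0.193 by edgeR. With the offsets the log2 fold change was −0.29, with an unadjusted p of 0.0159 and an adjusted p of 0.539 by edgeR. Pcsk4, the convertase of spermatids and sperm, had 154, 161 and 180 CPM in HETStra8 and 161, 218 and 194 CPM in KOStra8, overlapping, with a log2 fold change of 0.21 ± 0.10 (SE) that came to 0.37 with the offsets, where its unadjusted p was 0.014 by edgeR. Pcsk5 and Pcsk7 had −0.27 ± 0.26 (SE) and −0.03 ± 0.09 (SE).

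The last list, of regulators of ADAM10 and ADAM17, holds 13 genes, namely tetraspanins, rhomboid proteins, Frmd8 and the metalloprotease inhibitors Timp1 to Timp4. The Timp genes were taken as a family, whether or not each inhibits ADAM10 or ADAM17. Of these 12 were tested and Tspan10 was too low. Log2 fold changes were negative for 11 and positive for 1, where 51.5% of all genes were negative, and 0 were called. Tspan33, a tetraspanin that escorts ADAM10, and Timp2, a metalloprotease inhibitor, were lower at an unadjusted p below 0.05, or 16.7% against 5.12% of all genes, with log2 fold changes of −0.39 ± 0.13 (SE) and −0.34 ± 0.10 (SE) and adjusted p of 0.282 and 0.231 by edgeR. Without a filter on low counts the edgeR adjusted p of Timp2 was 0.00602, in a fit where 660 of 35894 genes had an adjusted p below 0.05. Timp2 had 204, 177 and 167 CPM in HETStra8 and 166, 133 and 132 CPM in KOStra8. With the offsets, 8 of the 12 were negative. Tspan33 came to −0.45 and Timp2 to −0.21 there, with unadjusted p of 0.0033 and 0.0316 and adjusted p of 0.375 and 0.607 by edgeR. In that fit 3.16% of all genes were lower at an unadjusted p below 0.05. Many of these genes are active in somatic cells of the testis, and the part of the Sertoli and Leydig marker levels given above in these values was not tested.

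**Figure D5:**
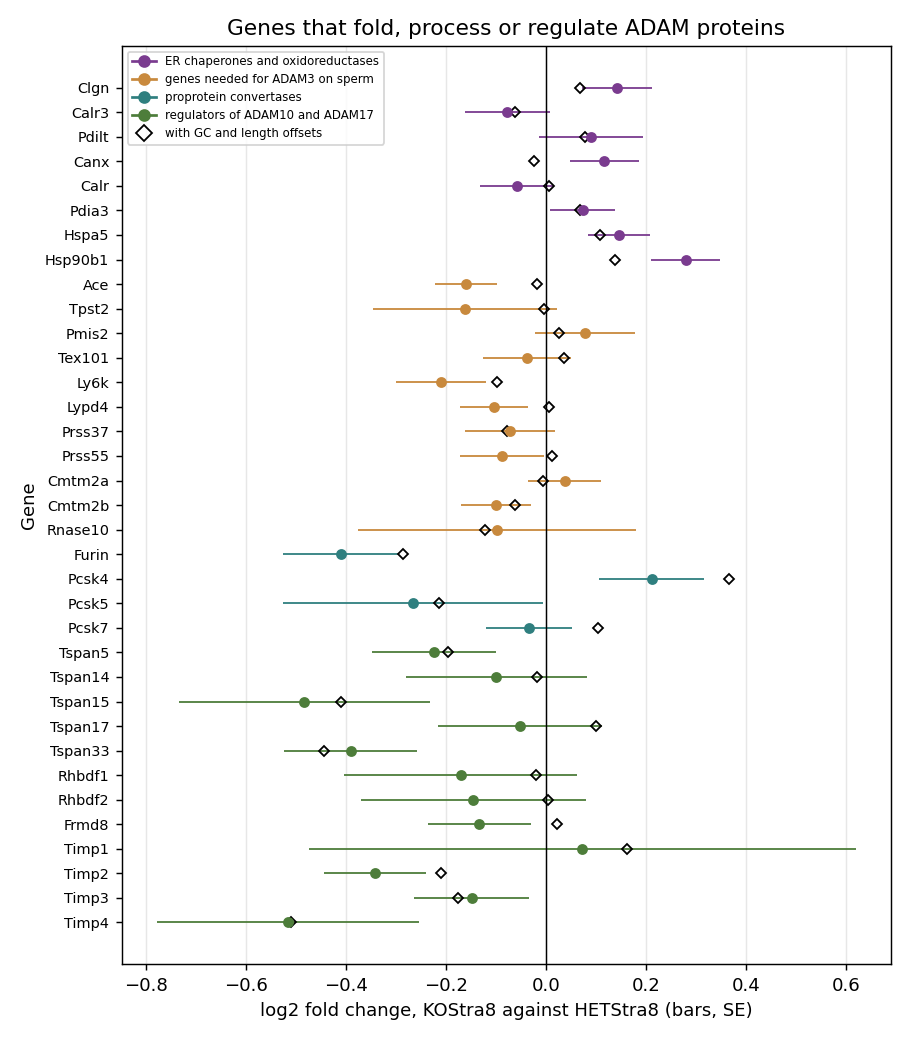
Each row is a gene of the 4 lists on folding, processing or regulation of ADAM proteins. The x axis gives its log2 fold change of KOStra8 against HETStra8, with bars for the SE (3 mice per group). Colors mark the 4 lists and open diamonds the values with GC and length offsets. Hsp90b1 (0.28), Furin (−0.41) and Timp2 (−0.34) lie away from 0 by more than 3 times their SE. Of the list of ADAM10 and ADAM17 regulators, which takes in all Timp genes, 11 of 12 lie below 0.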

How the data were processed

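RNA of whole testis from 3 KOStra8 and 3 HETStra8 mice was enriched for poly(A)+ transcripts and made into directional paired-end libraries. The authors deposited 1 table per mouse of raw read counts, whole numbers for 55536 Ensembl genes. The submitters' processing notes name FastQC, Trimmomatic, STAR 2.7.1a, Picard 2.20.4, StringTie 2.0.4, featureCounts 1.6.0, HTSeq and ChIPseeker and the builds mm10 and GRCm38. Which tool counted, its strand setting, its treatment of reads that fit several genes and the annotation release are not given in the sources used here. All 55536 identifiers were found in GENCODE M21 (GRCm38), from which symbols, exons, GC content and coding sequences were taken.

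Counts were fitted in R 4.3.3 with edgeR 4.0.16 (filterByExpr, TMM factors, robust quasi-likelihood F test, two-sided, genotype as the only term), with Benjamini-Hochberg adjustment over all 21465 tested genes. Genes were called at an adjusted p below 0.01 and a fold over 2. DESeq2 1.42.0, limma 3.58.1 (voom), other filters, loess offsets for GC content and length, the mouse number as a block, and leaving out each mouse were alternatives. The fits were tested on simulated data. Between same-numbered mice, deviations from the group means correlated at −0.052, −0.075 and 0.14. With 3 mice per group these values cannot settle whether the numbers pair the mice. Library totals lay between 28875108 and 36526695 counts, and no 2 libraries of a group agreed within sampling noise. Every member was named, with values per mouse for the testis list, for Adam9, Adam10, Adam15 and Adam17 and for members with an unadjusted p below 0.05. Partner genes were given as counts per list, with values for Clgn, Calr3, Pdilt, Ace, Tex101, Pcsk4 and those with an unadjusted p below 0.05, while Pcsk5, Pcsk7, Gm4787 and Gm5347 were added after their values were seen. The members and lists were chosen with earlier results of these data known.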

Additional observations from a re-analysis of the deposited data

How the results depend on the processing

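Over all genes, 2 were called in the fit used above, 39 without a filter on low counts, 6 by DESeq2's Wald test and 5 with the mouse number as a block. There were 5 at an adjusted p below 0.05 and 2630 at an unadjusted p below 0.05. Between 1 and 44 were called when 1 mouse was left out, the 44 being without HETStra8 mouse 3. The number of ADAM genes called was 0 in each of these except 1 without a filter (Adam7) and 5 at an unadjusted p below 0.05, and it was 0 under each leave-one-out fit. The replicate block was run as an alternative only, because whether the numbers pair the mice is not known. It gave 0 called ADAM genes and 4 at an unadjusted p below 0.05, against 2630 of 21465 genes in either direction. Over all genes, 175 had an adjusted p below 0.05 with the block, where the fit without it had 5. The block moved the log2 fold change of Adam15 to 0.032 and of Adam30 to 0.0012. The testis-list median was −0.0071 with GC and length offsets and between 0.0447 and 0.19 with 1 mouse left out, the lowest being without HETStra8 mouse 1. The median of the somatic genes was 0.11 with the offsets and between 0.142 and 0.217 with 1 mouse left out. Of 572 values of 44 named genes under the alternatives, 530 kept their direction and side of the threshold and 40 changed sign, all in genes without a called difference, and 27 genes had no sign change. For Sel1l the adjusted p by edgeR was 0.0132 without KOStra8 mouse 2 (log2 fold change −1.06) and 0.012 without KOStra8 mouse 3 (−1.01). With the offsets the log2 fold changes that changed sign were Adam1b 0.066, Adam2 −0.029, Adam6b −0.072, Adam10 −0.0033, Adam11 0.052, Adam15 0.11, Adam18 −0.025, Adam22 −0.0033, Adam25 −0.053, Adam26a −0.03, Adam34 −0.034 and Tex101 0.035. Without a filter they were Adam1b 0.00028 and Adam30 0.0024, with at least 10 counts in every sample Adam1b 0.00036 and Adam30 0.0028, with DESeq2's size factors Adam30 0.00086 and with limma-voom Adam15 0.027 and Adam30 0.0015. With 1 mouse left out, log2 fold changes that changed sign ranged, for each gene, as Adam1b −0.019 to 0.035, Adam6a −0.14 to 0.0011, Adam8 −0.31 to 0.036, Adam11 −0.22 to 0.013, Adam15 −0.27 to 0.16, Adam22 −0.0298 to 0.22, Adam23 −0.035 to 0.299, Adam25 −0.061 to 0.16, Adam30 −0.052 to 0.047, Pdilt −0.017 to 0.23 and Tex101 −0.083 to 0.055. The cause of these changes was not tested. Depth limits Adam7, Adam12, Adam19, Adam28 and Adam33, and the uncertain assignment of reads limits the near copies. Transcript counts give no protein level.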
